A study of Mus musculus with 30 samples.

Results

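The 7 RNA features that dominate, or mark the structural RNA of, mouse sperm libraries are Rn18s-rs5, Yam1, Rn7s1, Lars2, RP23-81C12.3, Mir6236 and Rpph1. They were chosen by name and on their shares of counts, as features that take most of the counts or that mark ribosomal RNA, the RNA of the signal recognition particle or the RNA of RNase P. They are 7 of the 16367 distinct features in both sperm count tables. All 7 were among the 3082 features of the total RNA table, and 6 were among the 16242 features of the polyA table, where Yam1 was not analysed. Because shares of counts chose the features, those shares are given as a description. The tests between groups are of scaled levels and of ratios within libraries.

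C57Bl/6J males, 3 months old at the start, received the dual PPARα/γ agonist tesaglitazar by intraperitoneal injection at 10 µg/kg (Tesa-inj), or an equivalent amount of DMSO in sterile saline (Vehicle-inj). Injections were given on 2 days per week for 4 weeks. Sperm that swam up from the cauda epididymis were treated to lyse somatic cells. Total RNA depleted of ribosomal RNA was sequenced from sperm taken 46 days after the last injection, in 7 Tesa-inj libraries (01 to 05, 11 and 12) and 7 Vehicle-inj libraries (06 to 10, 13 and 14). PolyA RNA was sequenced from sperm taken 24 h after the last injection, in 4 Tesa-inj libraries (1, 3, 5 and 7) and 4 Vehicle-inj libraries (2, 4, 6 and 8). Library totals ran from 4538102 to 13513816 counts at 46 days and from 15337589 to 27709990 counts at 24 h. The study's legend gives 6 Tesa-inj and 7 Vehicle-inj samples for the 46 days comparison, and its methods give n as animals once outliers are removed. No library is named as left out, so all 7 Tesa-inj libraries were used. The labels themselves do not say that the libraries come from separate animals, so p-values measure the spread between libraries.

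Ribosomal RNA makes up most of the RNA of a somatic cell, and library preparation removes it by depletion or passes it over by selecting polyadenylated RNA. The signal recognition particle RNA, to which Rn7s1 belongs, is part of the complex that brings secreted and membrane proteins to the endoplasmic reticulum. Rpph1 is the RNA of RNase P, which trims the leader from precursor tRNAs. Sperm shed most of their cytoplasm as they mature and carry little RNA, much of the ribosomal RNA in pieces. In bulk libraries, fewer cells of a type and less RNA per cell cannot be told apart.

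At 46 days Rn18s-rs5, annotated as an 18S ribosomal RNA pseudogene, took most of the counts in 10 of 14 libraries. In Tesa-inj its share was 30.6% at the lowest (library 11), 63.9% at the median and 74.8% at the highest (library 02), with a mean of 61.2% ± 14.5 (SD, n = 7). In Vehicle-inj it was 8.64% at the lowest (library 14), 63.0% at the median and 64.3% at the highest, with a mean of 50.5% ± 20.4 (SD, n = 7). The groups overlapped, and the lowest library of each was one of 11 to 14. Yam1, named as a long noncoding RNA of muscle, followed Rn18s-rs5 closely. Its share in Tesa-inj was 11.4%, 19.5% and 22.5% (lowest, median and highest), and in Vehicle-inj 2.77%, 17.3% and 22.3%. The libraries lowest for Yam1 in each group were again 11 and 14. Salmon divides reads that match several transcripts among them, so how the counts split between Rn18s-rs5 and near-identical ribosomal sequences is an estimate.

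The 7 features together left very different amounts of sequencing for all other RNA at 46 days. Their summed share ran from 23.5% in Vehicle-inj 14 to 94.8% in Tesa-inj 02. Outside them, Tesa-inj 02 held 452742 counts and Vehicle-inj 14 held 7353619. In Tesa-inj 02, 618 of 3075 other features had more than 20 counts, against 3072 of 3075 in Vehicle-inj 14. Each count outside the 7 features was matched by 14.5 counts of Rn18s-rs5 in Tesa-inj 02 and by 0.113 in Vehicle-inj 14. These 2 libraries held the highest and the lowest share of Rn18s-rs5. Much of what lay outside was in the 3 repeat families whose ratio to Rn18s-rs5 was steadiest, B4A, L1Md_F3 and L1Md_F2. They held 81.4% of the outside counts in Tesa-inj 02 and 4.27% in Vehicle-inj 14. Without these families, a split made after the values were seen, 84383 and 7039773 counts were left, an 83.4-fold gap in place of 16.2-fold. In Tesa-inj the counts outside were 452742, 1281283 and 3747427 (lowest, median and highest), and in Vehicle-inj 1066942, 1668537 and 7353619, so the groups overlapped.

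**Figure D1:**
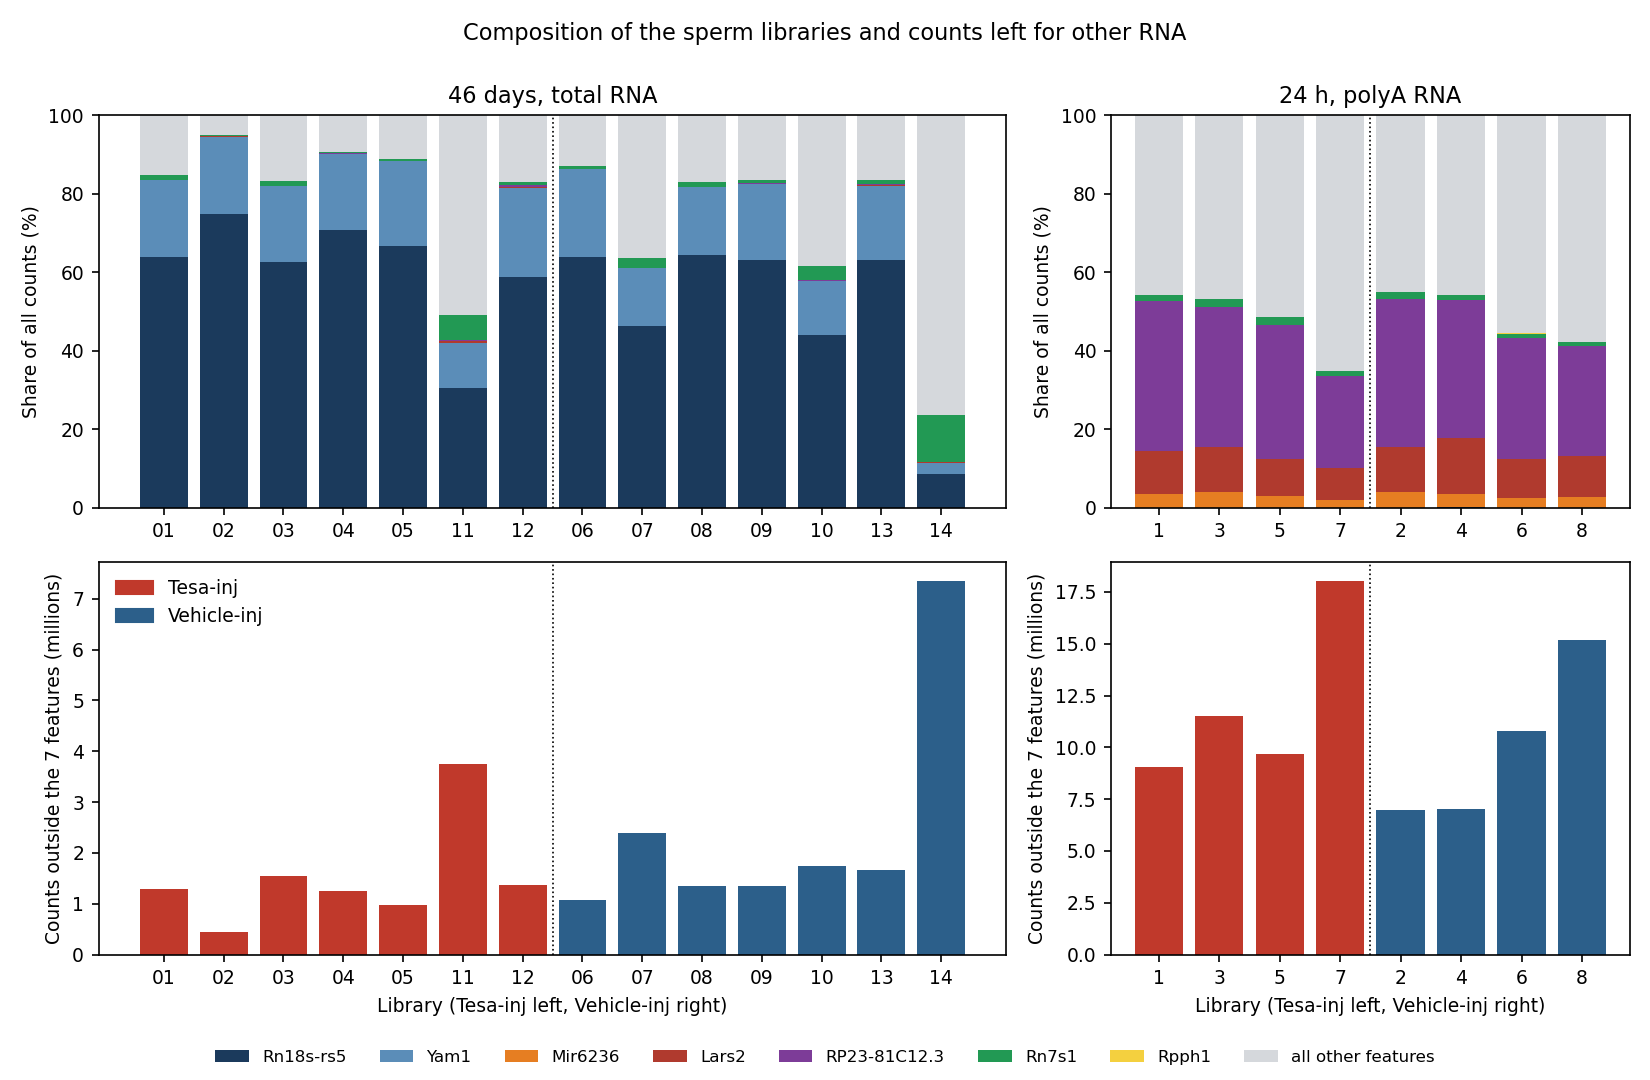
Upper panels show the share of all counts in each library taken by each feature and by all others (percent, stacked bars), and lower panels the counts outside the features (bars coloured by group), for 46 days total RNA and 24 h polyA libraries. Rn18s-rs5 and Yam1 fill most of the 46 days bars except in Tesa-inj 11 and Vehicle-inj 14, and RP23-81C12.3 and Lars2 fill much of the 24 h bars.

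Rn7s1, the signal recognition particle RNA, was highest at 46 days in the library where Rn18s-rs5 was lowest, and lowest where Rn18s-rs5 was highest. Its share in Tesa-inj was 0.118% (library 02), 0.792% and 6.19% (library 11), as lowest, median and highest, and in Vehicle-inj 0.757%, 1.22% and 11.8% (library 14). Taken per count outside the 7 features, Rn7s1 ran from 0.0228 in Tesa-inj 02 to 0.154 in Vehicle-inj 14. That is a 6.76-fold range, against a 128-fold range for Rn18s-rs5. Without B4A, L1Md_F3 and L1Md_F2 among the outside counts, Rn7s1 ran from 0.0873 (Vehicle-inj 09) to 0.183 (Tesa-inj 12) per count, a 2.10-fold range, and after TMM scaling its range was 2.84-fold. These families were picked in the same libraries for their steady ratio to Rn18s-rs5. The narrower range can follow from that choice, so it is a description only. Rpph1, the RNase P RNA, took at most 0.0103% of the counts (Tesa-inj 12), so the word dominant does not hold for it by share. Its lowest share was 9.13e-05% in Tesa-inj 02, from 8 counts, with a 95% Wilson interval of 4.63e-05% to 0.00018%. Tesa-inj had a median of 0.000863%, Vehicle-inj had 0.000919%, and their ranges overlapped.

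RP23-81C12.3, Lars2 and Mir6236 were minor at 46 days. RP23-81C12.3, known here only by a clone-based name, took 0.0621%, 0.107% and 0.419% in Tesa-inj (lowest, median and highest) and 0.0617%, 0.0973% and 0.38% in Vehicle-inj. Lars2, named for the mitochondrial leucyl-tRNA synthetase, took 0.00921%, 0.0177% and 0.413% in Tesa-inj and 0.00971%, 0.0206% and 0.29% in Vehicle-inj. Its counts are those that Salmon assigned to this name, and which RNA they come from was not tested. In both groups the values were split by library number: Lars2 was at most 0.0212% in libraries 01 to 10 and at least 0.146% in libraries 11 to 14. RP23-81C12.3 was split the same way, at most 0.148% in libraries 01 to 10 and at least 0.164% in 11 to 14. The labels give the numbers and no batch, and each set of numbers holds libraries of both groups. Mir6236, annotated as a microRNA hairpin, took 0.000206%, 0.000446% and 0.0183% in Tesa-inj (lowest, median and highest) and 0.000462%, 0.00394% and 0.0103% in Vehicle-inj. The groups overlapped for all 3 of these features, and Tesa-inj 11 was highest for each.

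In the 24 h polyA libraries these features were the large ones. The share of RP23-81C12.3 was 38.3%, 35.5%, 34.3% and 23.4% in Tesa-inj 1, 3, 5 and 7, and 37.7%, 35.2%, 30.8% and 28.0% in Vehicle-inj 2, 4, 6 and 8. The share of Lars2 was 10.8%, 11.4%, 9.39% and 8.29% in Tesa-inj and 11.6%, 14.1%, 10.0% and 10.3% in Vehicle-inj. Both were lowest in Tesa-inj 7, and the groups overlapped for each. Gars, the most abundant of the other mitochondrial tRNA synthetases tested, took at most 0.00245% (Tesa-inj 7). Whether the counts of Lars2 come from the synthetase mRNA was not tested. Mir6236 took 3.57%, 4.06%, 2.86% and 1.82% in Tesa-inj and 3.91%, 3.55%, 2.49% and 2.78% in Vehicle-inj. Rn7s1 took 1.53%, 2.03%, 2.05% and 1.37% in Tesa-inj and 1.76%, 1.37%, 1.07% and 0.942% in Vehicle-inj. For both of these the groups overlapped as well.

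Rn18s-rs5 and Rpph1 were small at 24 h. Rn18s-rs5 took 0.0266%, 0.0336%, 0.0403% and 0.0206% in Tesa-inj and 0.044%, 0.0554%, 0.0247% and 0.0233% in Vehicle-inj. Rpph1 took 0.0103%, 0.0203%, 0.0262% and 0.0186% in Tesa-inj and 0.0183%, 0.0259%, 0.00781% and 0.01% in Vehicle-inj. The groups overlapped for both, and Vehicle-inj 4 held the highest share of Rn18s-rs5. The 6 features together took 34.9% (Tesa-inj 7) to 55.1% (Vehicle-inj 2) of the counts, which left 6973767 (Vehicle-inj 2) to 18037384 (Tesa-inj 7) counts for other RNA. Between 11274 and 14585 of the 16236 other features had more than 20 counts.

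**Figure D2:**
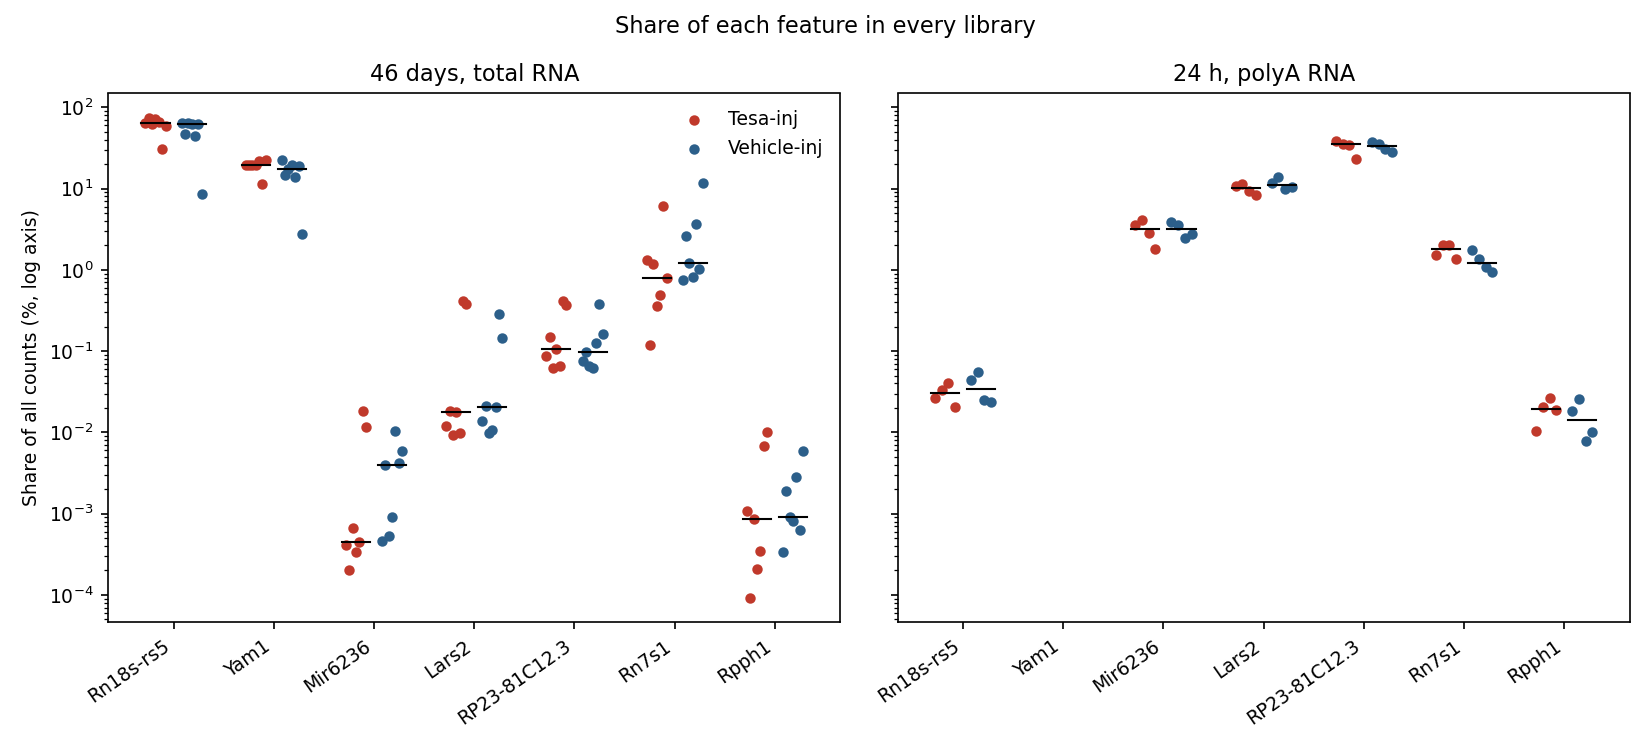
Share of all counts per library (percent, log axis) for each feature, with each Tesa-inj and Vehicle-inj library as a point and the group median as a line, for both experiments (Yam1 was not analysed at 24 h). The groups overlap for every feature within each experiment, and the Lars2 points at 46 days fall into a lower set (libraries 01 to 10) and a higher set (libraries 11 to 14).

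Set side by side, total RNA and polyA libraries differed in which features took the counts. Rn18s-rs5 was at 8.64% or more in all 14 total RNA libraries and at 0.0554% or less in all 8 polyA libraries. RP23-81C12.3, Lars2 and Mir6236 showed the opposite: the highest total RNA shares, 0.419%, 0.413% and 0.0183%, were under the lowest polyA shares, 23.4%, 8.29% and 1.82%. The ranges overlapped for Rn7s1 and for Rpph1. Shares refer to the counts of each table, and the tables hold different numbers of features. Library type, time after injection and experiment changed together and cannot be told apart, so no test was made.

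Levels of Rn18s-rs5, Rn7s1, Mir6236 and Rpph1 were set side by side in CPM (counts scaled to a common library total) per kilobase of annotated length. These values rest on the annotated lengths, 123 bases for Mir6236, and on how Salmon divided the reads. They are a description and do not measure true abundance. In total RNA the median was 340888 for Rn18s-rs5, 36918 for Rn7s1, 64.3 for Mir6236 and 27.4 for Rpph1. Rn18s-rs5 was above Rn7s1 in 12 of 14 libraries, and the rest of that order held in all 14. In polyA libraries the order was Mir6236 (median 260634), Rn7s1 (48564), Rpph1 (569) and Rn18s-rs5 (163), and it held in all 8. The features nearest in these orders with overlapping ranges were Rn18s-rs5 and Rn7s1, and Mir6236 and Rpph1, in total RNA, and Rpph1 and Rn18s-rs5 in polyA RNA.

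The study asked whether exposure of males to tesaglitazar changes the RNA of their sperm. At 46 days all 7 features had a higher fitted level in Tesa-inj than in Vehicle-inj after TMM scaling, which sets library factors so that most features keep the same level, while Rn7s1 was lower when scaled to library totals. The log2 fold change was 2.82 (SE 0.88) for Rpph1, 2.17 (SE 0.85) for RP23-81C12.3, 2.08 (SE 1.18) for Lars2 and 2.07 (SE 1.14) for Rn18s-rs5. It was 1.96 (SE 0.99) for Yam1, 1.91 (SE 0.93) for Mir6236 and 0.24 (SE 0.27) for Rn7s1. The differences were not past the threshold: the edgeR quasi-likelihood test called 0 of 7 at a Benjamini-Hochberg adjusted p under 0.05, with adjusted p from 0.754 to 0.999. It called 0 of all 2866 features tested (0%), and the edgeR exact test called 14 features, none of the 7, and DESeq2 and limma voom called 0. At an unadjusted p under 0.05 the edgeR fit had 2 of the 7, Rpph1 (adjusted p = 0.754) and RP23-81C12.3 (adjusted p = 0.829), against 152 of 2866 features (5.3%). The scaled values of the groups overlapped for all 7 features, and 0.0349% of all features tested had groups that did not overlap. On that scale 4 of 7 Tesa-inj libraries were above every Vehicle-inj library for Rpph1, Rn18s-rs5 and Yam1, 2 for RP23-81C12.3, and 1 for Mir6236, Lars2 and Rn7s1. By share of counts the numbers were 2, 3, 1, 1, 2, 2 and 0 in the same order.

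These 46 days values depended on the scaling and on single libraries. The TMM factors ran from 0.0981 in Tesa-inj 02 to 8.15 in Vehicle-inj 14. In Tesa-inj 02, Rn18s-rs5 stood at 7625833 CPM after TMM scaling, from a share of 74.8% of the counts. Scaled to library totals alone, the median of all features moved to −1.09, and the log2 fold changes became 0.55 for Rpph1, 0.76 for Lars2, 0.38 for RP23-81C12.3, 0.28 for Rn18s-rs5, 0.29 for Yam1, 0.28 for Mir6236 and −1.07 for Rn7s1. Relative to that median they were 1.63, 1.84, 1.46, 1.36, 1.38, 1.37 and 0.02. Without Tesa-inj 12 the log2 fold changes of Rpph1, Lars2 and Mir6236 were 0.25, 0.11 and −0.30, and that of Rn7s1 was −0.00. Without Tesa-inj 02 the values for Rn18s-rs5, Yam1 and RP23-81C12.3 were 1.20, 1.24 and 1.54. Without Vehicle-inj 13 the values for Lars2 and RP23-81C12.3 were 4.19 and 3.05. Within libraries 01 to 10, Mir6236 was at −0.69 and Lars2 at 2.21. DESeq2 gave −0.19 for Mir6236 and 0.29 for Rpph1.

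At 24 h the differences were smaller, and 5 of 6 were below 0, of which Rpph1 was above 0 when scaled to library totals. The log2 fold change was −0.52 (SE 0.46) for Rn18s-rs5, −0.38 (SE 0.54) for Lars2, −0.19 (SE 0.54) for Mir6236 and −0.16 (SE 0.64) for RP23-81C12.3. It was −0.04 (SE 0.48) for Rpph1 and 0.23 (SE 0.47) for Rn7s1. The edgeR quasi-likelihood test called 0 of 6 (0% of the 13752 features tested), with a Benjamini-Hochberg adjusted p of 1.0 for each. At an unadjusted p under 0.05 it had 0 of 6, against 372 of 13752 (2.71%), and the exact test, DESeq2 and limma voom called 0. The groups overlapped for all 6, and 3.26% of all features tested had groups that did not overlap. With library totals the median of all features moved to 0.19, and Rpph1 was at 0.28, which is 0.09 relative to that median. Rn7s1 was at 0.44 with library totals, 0.25 relative to that median, and at 0.54 without Vehicle-inj 2 and 0.03 without Vehicle-inj 8. Without Vehicle-inj 4, Rpph1 was at 0.42, Rn18s-rs5 at −0.16 and Lars2 at −0.17. Without Tesa-inj 7, Mir6236 and RP23-81C12.3 were at 0.08 each, and without Vehicle-inj 2 at 0.04 and 0.03.

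The difference between the effects at 46 days and at 24 h was tested in 1 model over all 22 libraries. It was 2.57 (SE 1.19) for Rpph1, 2.27 (SE 1.46) for Rn18s-rs5, 2.24 (SE 1.63) for Lars2, 2.04 (SE 1.22) for RP23-81C12.3, 1.88 (SE 1.31) for Mir6236 and −0.21 (SE 0.53) for Rn7s1, on the log2 scale. The edgeR quasi-likelihood test called 0 of 6 (0% of 2680 features tested), with a Benjamini-Hochberg adjusted p of 0.994 for each. Rpph1 alone among them had an unadjusted edgeR p under 0.05 (adjusted p = 0.994), against 127 of 2680 features (4.74%). Scaled to library totals alone, the median of all features in this comparison was −1.05, and the values were 0.32 for Rpph1, 0.56 for Rn18s-rs5, 0.99 for Lars2, 0.40 for RP23-81C12.3, 0.38 for Mir6236 and −1.47 for Rn7s1. Relative to that median they were 1.38, 1.61, 2.04, 1.46, 1.43 and −0.41. Without Tesa-inj 12 of the 46 days libraries, Rpph1 was at 0.18, Lars2 at 0.34 and Mir6236 at −0.15, and without Vehicle-inj 13 Lars2 was at 4.22. Rn7s1 was at −0.42 without Vehicle-inj 2 of the 24 h libraries and at −0.02 without Vehicle-inj 8.

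Ratios between features within a library do not depend on how libraries are scaled. Yam1 stood in a narrow ratio to Rn18s-rs5 at 46 days, between 0.264 and 0.383 in 14 libraries whose Rn18s-rs5 share differed from 8.64% to 74.8%. Tesa-inj had a median of 0.308 and Vehicle-inj one of 0.311, with a mean log2 difference of 0.03 (two-sided exact permutation test, p = 0.737, adjusted p = 0.8 over 5 ratio tests). That difference was −0.07 within libraries 01 to 10 and 0.29 within libraries 11 to 14, a set chosen after seeing the data. Lars2 counts per RP23-81C12.3 count were split by library number: they lay between 0.124 and 0.218 in libraries 01 to 10 and between 0.763 and 1.03 in 11 to 14. The mean log2 difference of that ratio, Tesa-inj minus Vehicle-inj, was −0.12 (exact permutation p = 0.709, adjusted p = 0.8). Within libraries 01 to 10 it was −0.28 (exact permutation p = 0.0556, adjusted p = 0.278), and without Vehicle-inj 14 it was 0.17. Within libraries 11 to 14, examined after the split was seen, it was 0.29, from 2 libraries of each group, which can give no exact permutation p below 0.333. The mean differences in the 2 sets had opposite signs, and the pooled value lay between them. Neither passed the threshold, and the difference between the sets was not tested.

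Rpph1 counts per 1000 Rn7s1 counts set Tesa-inj 12 apart. The ratio was 12.9 in that library and between 0.449 and 1.09 in the other 13 libraries at 46 days. The mean log2 difference was 0.78 (two-sided exact permutation test, p = 0.17, adjusted p = 0.429), 0.20 without Tesa-inj 12 and −0.01 within libraries 01 to 10. Within libraries 11 to 14, which hold Tesa-inj 12 and were chosen after seeing the data, it was 2.77. At 24 h the ratio was 6.70, 9.99, 12.8 and 13.6 in Tesa-inj 1, 3, 5 and 7 and 10.4, 18.9, 7.27 and 10.6 in Vehicle-inj 2, 4, 6 and 8, so the groups overlapped. The mean log2 difference was −0.10 (exact permutation p = 0.8, adjusted p = 0.8), and 0.16 without Vehicle-inj 4. Lars2 counts per RP23-81C12.3 count at 24 h were 0.281, 0.321, 0.274 and 0.354 in Tesa-inj and 0.309, 0.399, 0.325 and 0.369 in Vehicle-inj, which overlap. The mean log2 difference was −0.19 (exact permutation p = 0.171, adjusted p = 0.429), where 0.0286 is the smallest p that 4 against 4 libraries can give.

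**Figure D3:**
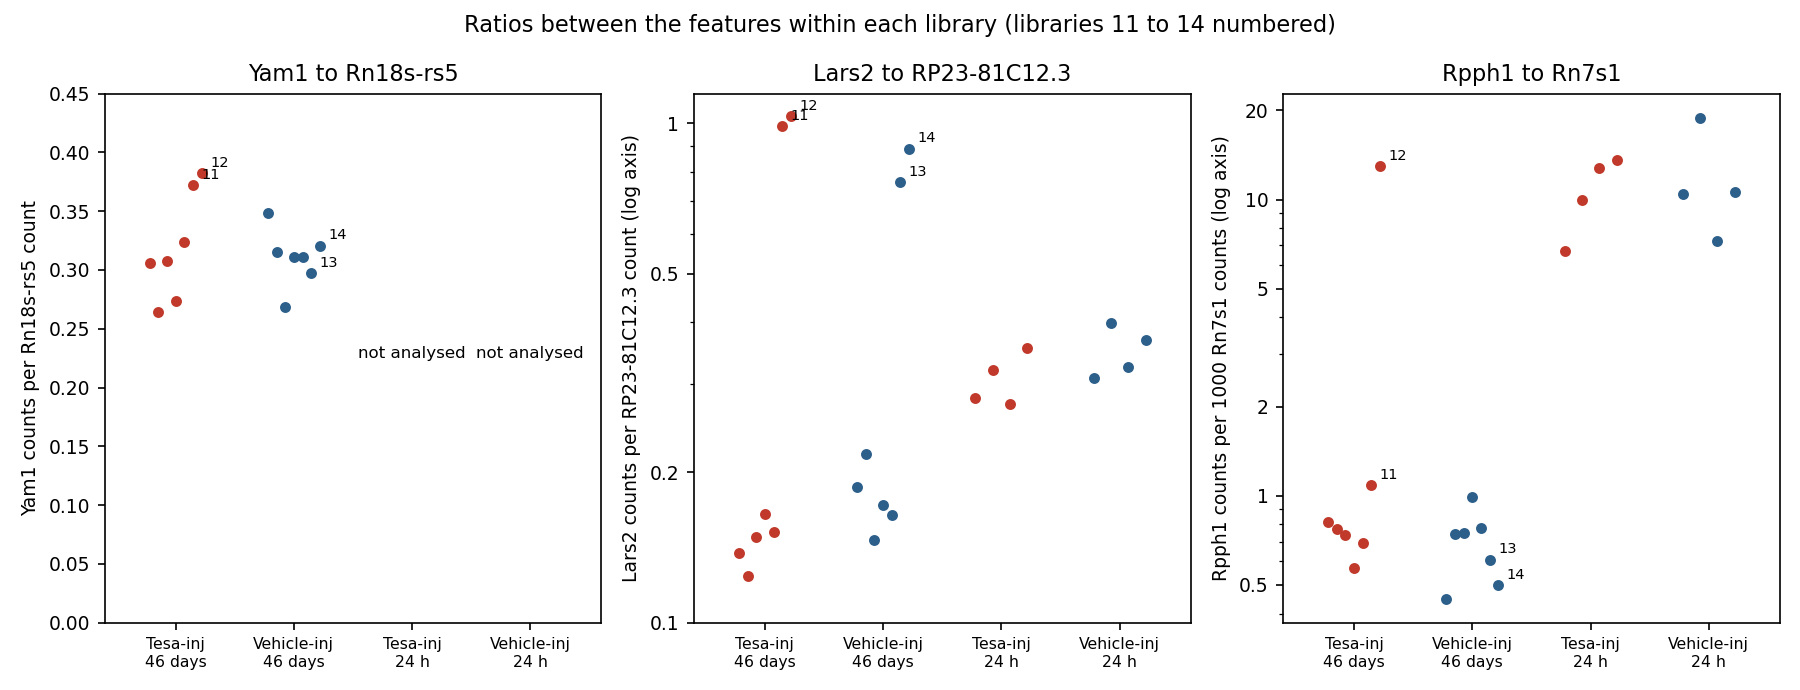
Count ratios within each library for Yam1 to Rn18s-rs5 (linear axis), Lars2 to RP23-81C12.3 and Rpph1 to Rn7s1 per 1000 (log axes), by group and experiment, with libraries 11 to 14 numbered. The Yam1 ratio stays between 0.264 and 0.383, the Lars2 ratio is at 0.763 or more in libraries 11 to 14, and Tesa-inj 12 is at 12.9 for Rpph1.

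The features that kept the steadiest ratio to each of these were found by the SD over libraries of the log2 ratio, among features other than the 7 with more than 20 counts in every library. At 46 days (14 libraries, 598 features) the 3 nearest to Rn18s-rs5 were the repeat families B4A (SD 0.62), L1Md_F3 (0.80) and L1Md_F2 (0.91), and the same families were nearest to Yam1. Between Yam1 and Rn18s-rs5 the SD was 0.16. Rn7s1 was instead near protein-coding genes, Ddb1 (0.17), Arhgef12 (0.18) and Caprin1 (0.18), with a median of 0.67 over all features. The nearest to Rpph1 were the repeat family MMVL30-int (0.44), the long noncoding RNA Malat1 (0.53) and RP23-8J15.2 (0.66). All 4 were highest by far in Tesa-inj 12: in TMM-scaled CPM Rpph1 was at 324 there and at most 13.9 elsewhere, MMVL30-int at 654 and at most 35.2, Malat1 at 989 and at most 115, and RP23-8J15.2 at 813 and at most 36.1. How near they are without that library was not tested. Rn7s1 and its 3 neighbours were also highest in Tesa-inj 12, Rn7s1 at 25048.5 and at most 14490 elsewhere. Ddb1 was at 86.2 and at most 41.3, Arhgef12 at 134 and at most 73.6, and Caprin1 at 58.9 and at most 33.9. Mir6236 and Lars2 had the same 3 neighbours, ORR1A3, RP24-310M4.2 and L1Md_T, with SDs of 0.75 to 0.90 for Mir6236 and 1.42 to 1.58 for Lars2, whose ratio to RP23-81C12.3 was steadier (1.20). Tesa-inj 12 was highest for these too, with Mir6236 at 368 and at most 43.4 elsewhere, and Lars2 at 12157 and at most 2957. ORR1A3 was at 870 and at most 269, RP24-310M4.2 at 807 and at most 224, and L1Md_T at 4392 and at most 1811. Their nearness without Tesa-inj 12 was likewise not tested. RP23-81C12.3 was nearest to Arid2 (0.97), L1Md_F3 (0.99) and Eif4ebp2 (1.00).

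At 24 h (8 libraries, 8158 features) repeat families were again among the nearest. Lars2 was nearest to ORR1A3 (0.09), L1Md_F2 (0.13) and Ttll5 (0.18), and Mir6236 to L1Md_F2 (0.17), Mpeg1 (0.21) and ORR1A3 (0.22), with 0.19 for its ratio to RP23-81C12.3. RP23-81C12.3 was nearest to Galnt6 (0.17), ORR1A3 (0.17) and Arhgap30 (0.18), and the SD of its ratio to Lars2 was 0.19. ORR1A3 was among the 3 nearest of each of these features, and the SD of the ratio of Mir6236 to Lars2 was 0.25. Rn18s-rs5 was nearest to L1Md_F3 (0.25), Vrk1 (0.26) and L1Md_F2 (0.29), and Rn7s1 to RP24-235K10.1 (0.23), Map3k14 (0.25) and L1Md_T (0.25). Rpph1 was nearest to Scarna2 (0.16), a guide RNA of Cajal bodies, then to Prr12 (0.22) and RP23-81C12.1 (0.29). The median SD over all features ran from 0.75 (Lars2) to 0.95 (Rn18s-rs5). Some neighbours had few counts in their lowest library: 27 for Galnt6, 31 for Map3k14, and 37 each for Vrk1 and RP24-235K10.1. Each neighbour was picked as among the smallest of 8158 SDs, and nearness was not tested.

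The features that could be placed lie on different chromosomes, apart from Mir6236 and Lars2. In RefSeq's annotation of GRCm38.p6, 5 of the 7 names matched. Rn18s-rs5 lies at chr17:39846354-39848202, and its end overlaps the start of the long noncoding RNA AY036118 at chr17:39848112-39898385. Rn7s1 lies at chr12:69159295-69159593 and Rpph1 at chr14:50807447-50807771. Lars2 lies at chr9:123366927-123462675. Mir6236 lies at chr9:110281287-110281409, within the long noncoding RNA Gm39429. The mature sequence is shown because Mir6236 took up to 4.06% of polyA counts from a hairpin of 123 bases, and the capitals mark its seed, bases 2 to 8, on the plus strand at chr9:110281353-110281371 (RefSeq).
mmu-miR-6236: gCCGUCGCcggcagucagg
Its G and C content was 78.9%, against a median of 52.2% over 1738 mature mouse microRNAs, and 0 others share its seed. The counts are of long RNA libraries and do not measure the mature microRNA.

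Other structural RNAs showed how far single libraries reached beyond the 7 features. At 46 days 11 were tested, and all 11 had a log2 fold change above 0, with a median of 1.17 against −0.03 over all features, but with library totals 1 of 11 was above 0, with a median of −0.71 against −1.09. The edgeR quasi-likelihood test with Benjamini-Hochberg adjustment called 0 of 11, and 5 had an unadjusted p under 0.05 (against 5.3% of all features tested), while the exact test called 1, Rmrp. Rmrp, the RNA of RNase MRP, was at 3.87 (SE 1.09), Neat1 at 2.06 (SE 0.68), Malat1 at 1.62 (SE 0.63) and Rn7sk, the RNA that holds the elongation factor P-TEFb, at 1.17 (SE 0.54). For each of these 4 the highest scaled value was in Tesa-inj 12, the library with the highest Rpph1 to Rn7s1 ratio. The other features that the exact test called higher included C3, C4b, Lrp1 and Abca1, at log2 fold changes of 6.49, 5.01, 4.79 and 2.97, and the mitochondrial mRNAs mt-Cytb, mt-Nd1, mt-Nd4 and mt-Nd5, at 5.66, 5.33, 5.85 and 4.06. It called 2 lower, RP24-13G16.1 (−1.97) and RP24-152H15.4 (−1.25). The quasi-likelihood test called 0 of 2866 features, and the exact test was not repeated without Tesa-inj 12. In CPM after TMM scaling, Rmrp was at 166 in Tesa-inj 12 and at 9.31 in the next library. Without Tesa-inj 12, the median of the 9 structural RNAs tested was 0.10, and 0 had an unadjusted p under 0.05, against 88 of all 2827 features tested.

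At 24 h 59 other structural RNAs were tested, and 53 were below 0, with a median of −0.94 against −0.02 over all features. The list takes in every feature named Snora, Snord, Scarna, Rnu or n-R5s, so it held 103 names here and 47 at 46 days. Copies of 1 RNA can share reads, so the 59 are not separate observations. The highest shares of n-R5s100 (6.42%) and n-R5s106 (0.322%) were both in Vehicle-inj 4. The edgeR quasi-likelihood test with Benjamini-Hochberg adjustment called 0 of 59, and 9 had an unadjusted p under 0.05 with lower values in Tesa-inj and 1 with higher, against 2.71% of all features tested. The mitochondrial ribosomal RNAs mt-Rnr2 (−0.93, SE 0.39) and mt-Rnr1 (−0.94, SE 0.38) were lower in all 4 Tesa-inj than in all 4 Vehicle-inj libraries on the scaled values, at an edgeR adjusted p of 1.0 each. Such groups without overlap made up 3.26% of all features tested. Without Vehicle-inj 4, 31 of 57 structural RNAs were below 0, with a median of −0.09, and 5 had an unadjusted p under 0.05 with lower values in Tesa-inj. That number was also 5 without Tesa-inj 1 or Vehicle-inj 2, 4 without Tesa-inj 7 and 4 with library totals. Other settings raised it, to 10 without Tesa-inj 3, 12 without Vehicle-inj 6, 12 with the exact test and 14 with DESeq2. Of all features, in either direction, 410 of 13504 had an unadjusted edgeR p under 0.05 without Vehicle-inj 4. The number was 407 of 13238 without Vehicle-inj 6, and 492 of 13752 with DESeq2. The median of the structural RNAs was −1.22 without Vehicle-inj 6. Vehicle-inj 4 was also the library with the highest shares of Rn18s-rs5 and Lars2.

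Genes that make or bind these RNAs were mostly outside the 46 days table. Of RNA polymerase I and ribosomal RNA processing genes, 4 of 44 were in the table at 46 days and 40 of 44 at 24 h. For RNA polymerase III, whose products include Rn7s1 and Rpph1, the numbers were 1 of 26 and 26 of 26, and for signal recognition particle proteins 1 of 11 and 10 of 11. RNase P and MRP proteins had 0 of 11 and 9 of 11, and mitochondrial tRNA synthetases other than Lars2 had 3 of 18 and 16 of 18. By the edgeR quasi-likelihood test with Benjamini-Hochberg adjustment 0 genes of these lists were called in either table. Unadjusted edgeR p was under 0.05 for 1 gene at 46 days, Snapc4 (log2 fold change 0.94, SE 0.33, adjusted p = 0.754), a subunit of the factor that starts small nuclear RNA transcription, and for 1 polymerase I gene at 24 h, against 5.3% and 2.71% of all features tested. At 46 days the medians were 0.32 for the 4 polymerase I genes tested, 0.94 for Snapc4, 1.165 for Srpr, of the signal recognition particle receptor, and 0.36 for the mitochondrial synthetase Aars2, against −0.03 over all features. With library totals they were −0.97, −0.40, −0.76 and −1.21 against −1.09, and without Tesa-inj 12 Srpr was at −0.08, the polymerase I median at 0.14 and Aars2 at 0.13. The medians at 24 h were 0.04, 0.08, 0.01, 0.09 and 0.12 in the order of the lists given, against −0.02 over all features.

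All 15 late spermatid and sperm markers, such as the protamines that pack sperm DNA, were present in both tables, with Prm2 the most abundant at 46 days and Odf1 at 24 h. At 46 days their summed level, in CPM of library totals, was 66.3 (Tesa-inj 02) at the lowest and 8027 (Vehicle-inj 14) at the highest. In CPM after TMM scaling the same libraries held 676 and 985, and the range was 443 (Vehicle-inj 13) to 1055 (Tesa-inj 11). Tesa-inj 12 was next to the lowest at 515. Left out in turn, Tesa-inj 12 gave the lowest and Vehicle-inj 13 the highest log2 fold change of Lars2 and Mir6236 at 46 days. At 24 h the sum in CPM of library totals was 9193, 5621, 13608 and 12195 in Tesa-inj 1, 3, 5 and 7 and 7628, 3315, 11015 and 15606 in Vehicle-inj 2, 4, 6 and 8. Vehicle-inj 4, lowest for sperm markers, had the highest share of Lars2 and of Rn18s-rs5. What part these marker levels had in any difference was not tested.

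Markers of other cells were analysed at 24 h. At 46 days 0 of those listed were in the table, so these lists do not measure other cells there. Of 10 leukocyte markers 9 were present, Cd52 the most abundant, and their sum in CPM of library totals was 1699, 1163, 2366 and 4041 in Tesa-inj 1, 3, 5 and 7 and 1304, 959, 2185 and 1755 in Vehicle-inj 2, 4, 6 and 8. Most of each sum was Cd52 (830 to 3746), which the epididymal epithelium also expresses. After TMM scaling the sum was 2569 in Tesa-inj 7, the highest, and 2191 in Tesa-inj 5, and without Cd52 it was highest in Vehicle-inj 2 (274), with 188 in Tesa-inj 7. Tesa-inj 7 had the lowest shares of RP23-81C12.3, Lars2, Mir6236 and Rn18s-rs5. Of 16 epididymal markers 9 were present, Spink8 the most abundant, with sums from 775 (Vehicle-inj 2) to 3084 (Vehicle-inj 8). Of 5 blood markers 4 were present, Hba-a2 the most abundant, with list sums from 43.2 to 310.0. All 5 smooth muscle markers were present, Tagln the most abundant, with list sums from 9.15 to 83.5. Of 8 Sertoli and Leydig cell markers 2 were present, with list sums from 304 to 1304. Nearly all of this was Clu (303 to 1300), which many cell types express, and Amh, Wt1, Cyp17a1, Cyp11a1, Star and Insl3 were not in the table. Their part in the values of the 6 features was not tested.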

How the data were processed

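The deposited values are estimated counts per gene or repeat family, made by the authors with Trim Galore 1.16 and Salmon 0.11.2 (GRCm38) and not normalized. They were rounded to whole counts. The members and lists were chosen with earlier results of these data known. Features were kept when over 20 counts were seen in 6 or more (46 days) or 4 or more (24 h) libraries, and tested with the edgeR quasi-likelihood test on TMM factors over the whole table, two-sided, with Benjamini-Hochberg adjustment over all features tested and a threshold of 0.05. The difference between experiments was the interaction term of 1 model over 22 libraries. Ratios (1 count added for the neighbour search alone) were compared between groups by exact permutation, two-sided, adjusted over 5 tests. SE is the log2 fold change divided by the square root of F. Wilson intervals cover counting error only. At most, the 95% interval of a 46 days share was 0.0913 percentage points wide.

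Named genes were all 7 members, the 3 features with the steadiest ratio to each, of each gene list the 3 most abundant and any called, of other structural RNAs all or the 8 most abundant, and the most abundant gene of each marker list. Of these, those with the values that the comparisons turn on are named. Rmrp, Neat1, Malat1, Rn7sk, Snapc4, Srpr and the features that the exact test called were singled out after their values were seen. Alternatives were the edgeR exact test, DESeq2, limma voom, library totals, TMM without the members, DESeq2 size factors, no count filter, filterByExpr, linear ratios, each library left out, libraries 01 to 10 alone and a term for libraries 11 to 14. Leaving out libraries 02 and 12 together, and ratios within libraries 11 to 14, were chosen after seeing the data. The serum small RNA table was not used.

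Versions were R 4.3.3, edgeR 4.0.16, limma 3.58.1, DESeq2 1.42.0, Python 3.11.15, numpy 2.4.6, pandas 2.3.3, scipy 1.17.1 and matplotlib 3.10.9.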

Additional observations from a re-analysis of the deposited data

Results flagged for a closer look

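Each group of libraries was screened for a value far from the others by Dixon's gap ratio, in 40 groups of 7 libraries (46 days) or 4 libraries (24 h), where chance alone sets apart about 1 in 20 groups. It set apart 9 values, all at 46 days. Most are shares of counts, by which the features were chosen, or the counts those shares leave, so they are a description and support no difference. Tesa-inj 11 was lowest for Rn18s-rs5 (30.6% of counts) and Yam1 (11.4%), and highest for Rn7s1 (6.19%) and for counts outside the 7 features (3747427). Vehicle-inj 14 was lowest for Rn18s-rs5 (8.64%), and highest for Rn7s1 (11.8%) and for counts outside the 7 features (7353619). The values of each library share 1 total, so they are not separate observations. Vehicle-inj 13 was highest for RP23-81C12.3 (0.38%). Tesa-inj 12 was highest for Rpph1 counts per 1000 Rn7s1 counts (12.9). The causes were not tested.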

How the results depend on the processing

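No member passed the adjusted threshold in any of 415 alternative fits of a fold change (0 with an adjusted p under 0.05), and 618 of 655 alternatives of all results kept their direction and their side of the threshold. No paired analysis was possible because Tesa-inj and Vehicle-inj libraries share no replicate numbers. Low depth outside the 7 features limits the 46 days values, with 452742 counts in Tesa-inj 02, or 84383 without B4A, L1Md_F3 and L1Md_F2. The edgeR exact test called 14 features at 46 days, 1 of them on a list (Rmrp). For the difference between experiments, the number called was 0 to 2 with 1 library left out.

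At 46 days the log2 fold change of Mir6236 was −0.19 with DESeq2 and −0.69 within libraries 01 to 10, and that of Rn7s1 was −1.07 with library totals. Without libraries 02 and 12 together, an alternative chosen after seeing the data, Mir6236 was at −0.38, Lars2 at −0.68 and Rn7s1 at −0.026. With 1 library left out, the ranges were −0.30 to 2.38 for Mir6236 and −0.00468 to 0.31 for Rn7s1 at 46 days, and −0.15 to 2.28 for Mir6236 in the difference between experiments. At 24 h, Rpph1 was at 0.14 with limma voom and 0.28 with library totals. With 1 library left out at 24 h, the ranges were −0.30 to 0.42 for Rpph1, −0.39 to 0.0808 for Mir6236 and −0.37 to 0.0834 for RP23-81C12.3.

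The difference in the Lars2 to RP23-81C12.3 ratio at 46 days was 0.0292 with linear ratios, 0.29 within libraries 11 to 14 (chosen after seeing the data) and −0.46 to 0.17 with 1 library left out. That of Yam1 to Rn18s-rs5 was −0.0747 within libraries 01 to 10 and 0.29 within libraries 11 to 14 (chosen after seeing the data). With 1 library left out it was −0.0165 to 0.0725. That of Rpph1 to Rn7s1 at 46 days was −0.0121 within libraries 01 to 10 and 2.77 within libraries 11 to 14, the set with Tesa-inj 12. At 24 h it was −0.30 to 0.16 with 1 library left out. For each of these changes, the cause was not tested.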
